A study of Mus musculus with 6 samples.

Results

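The microRNA miR-210 was followed in mouse hearts under lasting pressure load. Its members are the rows named miR-210-3p and miR-210-5p, the 2 mature strands of a single hairpin, out of 1966 rows of mature miRNAs in the count table. They were chosen by name, and both passed the filter on low counts that left 354 miRNAs for testing. Small RNA had been sequenced from hearts of male wild-type mice collected 8 weeks after an operation. In 3 mice (animals 29, 78 and 81) transverse aortic constriction (TAC) had narrowed the aorta, which makes the left ventricle pump against a raised pressure, and 3 mice (animals 47, 68 and 69) had a sham operation. The mice share sex, genotype, tissue and time, each gave 1 library, and no strain or age is given in the sources used here.

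miR-210 is the microRNA most often linked to low oxygen. The transcription factor HIF1, which is stabilised when oxygen is short, induces it in most cell types. The 3p strand is the guide that is loaded into the silencing complex, and its known targets include the iron-sulfur cluster scaffold ISCU and other genes of mitochondrial respiration. In heart muscle cells miR-210 has been described as protecting against death in ischemia. Thickened, pressure-loaded heart muscle can outgrow its capillary supply, and the comparison of TAC with sham hearts gives the level of miR-210 under such a load.

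The mature strands are printed first because the rows are defined by them. Bases 2 to 8, the seed that pairs with target mRNAs, are in capitals in the mature strands, and in the hairpin the capitals mark the 5p strand and then the 3p strand. The sequences are those of RefSeq on build GRCm38.p6, at coordinates identical to those of the count table, and all are on the minus strand.
miR-210-3p (chr7:141221407-141221428): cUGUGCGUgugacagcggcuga
miR-210-5p (chr7:141221445-141221466): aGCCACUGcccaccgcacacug
Mir210 hairpin (chr7:141221384-141221493): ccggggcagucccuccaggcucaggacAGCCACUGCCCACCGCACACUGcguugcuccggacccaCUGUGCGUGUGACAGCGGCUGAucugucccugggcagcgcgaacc

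The hairpin is 110 nt long and has its own gene, Mir210, in GENCODE release M21. No other annotated gene overlaps it. On one side Rassf7 ends 2726 nt away, and on the other Phrf1 begins 7291 nt away. Each mature strand is 22 nt long, and 16 nt separate them. RNAfold predicted that 16 of the 22 bases of each strand pair with the opposite strand. Each row has a single place in the genome and overlaps no row on the opposite strand. Among the 1675 rows with a RefSeq mature sequence, 0 others had the seed of miR-210-3p and 0 the seed of miR-210-5p. The most similar sequence to either strand was 7 edits away. The counts of both rows are therefore not shared with a near-identical miRNA among those sequences.

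Library totals were 1226187 to 1795831 counts in TAC and 1818725 to 3509001 counts in sham, so the TAC libraries were all the shallower ones. The labelled tissue, but not the labelled operation, was checked on miRNAs that define heart muscle. The direction of every change below therefore rests on the group labels. miR-1a-3p averaged 226655 CPM (read counts scaled to a common library size) in TAC and 125166 CPM in sham. Of its 2 places in the genome, 1 is overlapped by miR-1b-5p on the opposite strand. miR-208a-3p, encoded in the adult cardiac myosin gene Myh6, averaged 278 CPM in TAC and 188 CPM in sham. CPM values here are scaled with TMM factors, which set the libraries level on the bulk of their miRNAs.

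miR-210-3p fell in TAC hearts. It had 244, 247 and 127 counts in TAC 29, 78 and 81, against 836, 454 and 711 counts in sham 47, 68 and 69. On the TMM scale these were 148, 166 and 119 CPM in TAC 29, 78 and 81, against 214, 228 and 279 CPM in sham 47, 68 and 69. The highest TAC heart lay below the lowest sham heart, and TAC 81 and sham 69 were the extremes. The means were 144 ± 23.5 CPM in TAC and 240 ± 34.0 CPM in sham (SD, n = 3 each). The log2 fold change of TAC over sham was -0.73 ± 0.17 (standard error), a level 1.66-fold lower in TAC, with an adjusted p = 0.0133 (edgeR quasi-likelihood test, Benjamini-Hochberg over the 354 tested miRNAs). Over the 9 pairings of a TAC heart with a sham heart the ratio of CPM values ran from 0.428 to 0.776 with a median of 0.596. The exact permutation test of the CPM values, two-sided, gave p = 0.1, which is the smallest that 3 against 3 allows.

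**Figure D1:**
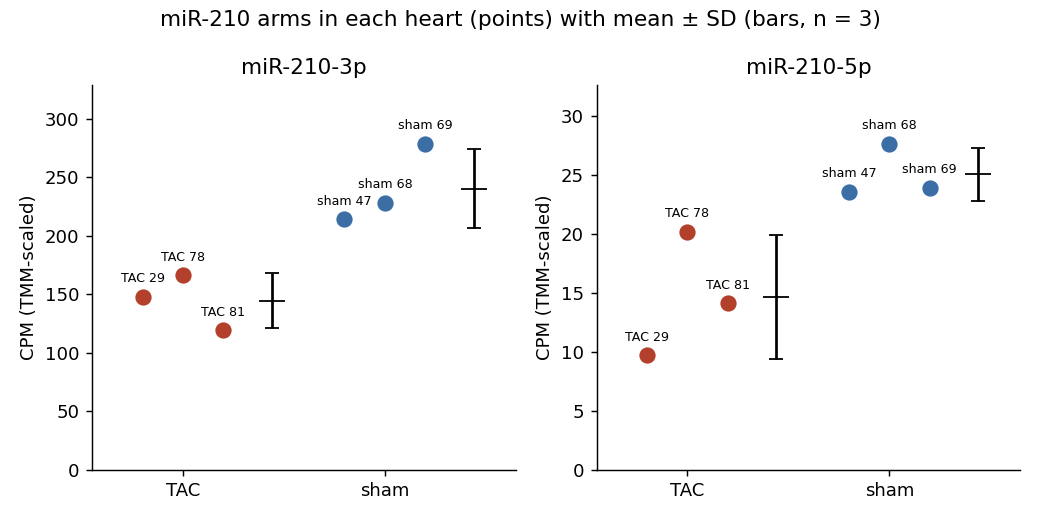
TMM-scaled CPM of miR-210-3p (left) and miR-210-5p (right) in each heart, with TAC left of sham, 1 point per heart and bars for the mean ± SD of 3 hearts. For both strands every TAC point lies below every sham point, and the spread of miR-210-5p within TAC (9.68 to 20.2 CPM) is wider than within sham (23.5 to 27.6 CPM).

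miR-210-5p, the passenger strand, was rarer than the guide in every heart, and its change did not pass the threshold. It had 16, 30 and 15 counts in TAC 29, 78 and 81, against 92, 55 and 61 counts in sham 47, 68 and 69. These correspond to 9.68, 20.2 and 14.1 CPM in TAC 29, 78 and 81, against 23.5, 27.6 and 23.9 CPM in sham 47, 68 and 69. The groups again did not overlap, although TAC 78 came close to sham 47. Counting error is large at this depth. A 95% Poisson interval runs from 8.40 to 24.7 counts around the 15 counts of TAC 81 and from 74.2 to 113 around the 92 counts of sham 47. The means were 14.6 ± 5.26 CPM in TAC and 25.02 ± 2.26 CPM in sham (SD, n = 3 each), with a log2 fold change of -0.77 ± 0.27 and an adjusted p = 0.0538 by edgeR.

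So 1 of the 2 strands was called lower. Of all tested miRNAs 30.5% were called in either direction and 11.3% were called lower in TAC. Both strands had groups that did not overlap, with TAC below sham, as 22% of all tested miRNAs did, and 51.4% had no overlap in either direction. In the order of log2 fold changes miR-210-5p stood 30th and miR-210-3p 34th from the lowest of 354, and miR-210-3p had the 23rd lowest change among the 40 called lower. By mean CPM over all 6 hearts miR-210-3p was 116th and miR-210-5p 254th from the highest of 354 mature miRNAs.

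Both strands had similar log2 fold changes between the groups, of which that of miR-210-3p passed. Summed, they gave 157, 186 and 133 CPM in TAC 29, 78 and 81, against 237, 256 and 302 CPM in sham 47, 68 and 69, and the log2 fold change of the sum was -0.74 ± 0.17 (edgeR adjusted p = 0.0116). The 5p strand held 6.15%, 10.8% and 10.6% of miR-210 counts in TAC 29, 78 and 81, against 9.91%, 10.8% and 7.90% in sham 47, 68 and 69. The 95% exact binomial intervals, which cover counting error only, were widest in TAC 81 (6.03% to 16.8%) and narrowest in sham 69 (6.10% to 10.03%). TAC 29 had the lowest share, its interval of 3.56% to 9.80% overlapped that of every other heart, and the groups overlapped. The log2 ratio of 3p to 5p counts averaged 3.32 ± 0.50 in TAC and 3.25 ± 0.26 in sham (SD, n = 3 each), a difference of 0.07 (two-sided exact permutation p = 0.9). Leaving out TAC 29 turned the difference to -0.22, and leaving out sham 68 turned it to -0.04. No difference between the strands in their response was detectable at this depth.

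In the whole table, 88 hairpins had both strands tested. Of these, 35 had both strands lower in TAC by sign, 27 both higher and 26 opposite signs. miR-210 was among the 35, with a distance between its strands of 0.04 log2 units, the 7th smallest of the 88, against a median of 0.30. That distance is well below the standard error of the miR-210-5p change (0.27), so its rank is uncertain. Only 4 of the 88 hairpins had both strands called lower, and miR-210 was not one of them because of miR-210-5p. The 3 hairpins with the most similar ratio of strands behaved differently from one another. In miR-485 the 3p strand was at -0.46 and the 5p strand at -1.36, in miR-582 they were at 0.79 and 0.89, and in miR-490 at -0.24 and -0.25 (log2 fold changes of TAC over sham).

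**Figure D2:**
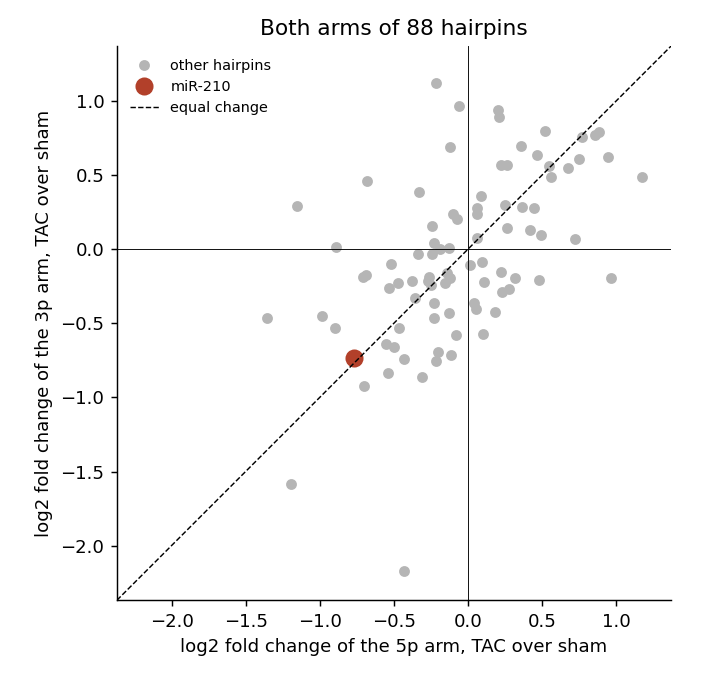
Log2 fold change of TAC over sham for the 3p strand (vertical) against the 5p strand (horizontal) of 88 hairpins with both strands tested, 1 point per hairpin, with the dashed line marking equal change. miR-210, in red, lies close to the line at -0.73 for 3p and -0.77 for 5p.

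The size of the change depended on what the libraries were levelled on. With library totals in place of TMM factors, the median of all log2 fold changes moved to -0.23, against 0.07 with TMM, and miR-210-3p stood at -1.04. On that scale miR-210-3p was at 136, 151 and 104 CPM in TAC 29, 78 and 81, against 238, 250 and 314 CPM in sham 47, 68 and 69. Relative to the median of all tested miRNAs, miR-210-3p was at -0.80 with TMM, RLE, upper quartile and library total scaling alike. Ranked among the 354 miRNAs of the reported test, it was 34th from the lowest in each of these 4, all of which shift every miRNA nearly alike, 38th with the PCR references and 50th with a GC trend taken out. DESeq2 gave it place 32 of the 348 of these that it tested, and without a low-count filter, where 1100 miRNAs were tested, it was 314th of all and 34th of the 354. The background of calls shifted with the scaling: TMM gave 40 lower calls beside 68 higher, RLE gave 56 beside 50, upper quartile factors 63 beside 41, the PCR references 56 beside 35, totals without the 5 most abundant miRNAs 82 beside 35, and library totals 102 beside 25.

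Direct ratios to miRNAs often used as references in PCR assays need no scaling. For every 100 counts of miR-191-5p there were 11.5, 16.05 and 8.73 counts of miR-210-3p in TAC 29, 78 and 81, against 22.3, 20.6 and 26.5 in sham 47, 68 and 69. TAC lay wholly below sham for 6 of the 7 references, and the mean ratio was between 1.40-fold (miR-423-3p) and 2.37-fold (miR-16-5p) lower in TAC. The gap was narrow for miR-423-3p, at 3.28 counts of miR-210-3p per 100 in TAC 78 and 3.30 in sham 47. For miR-103-3p, where the mean ratio was 1.61-fold lower, the groups overlapped: there were 9.15 counts of miR-210-3p per 100 in TAC 78 and 8.92 in sham 68. Of these references miR-16-5p and miR-25-3p were themselves called higher in TAC, at 0.52 and 0.46 on the log2 scale. miR-423-3p was at -0.23 ± 0.09 (edgeR adjusted p = 0.0753) and was called lower in 9 of 17 alternatives.

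**Figure D3:**
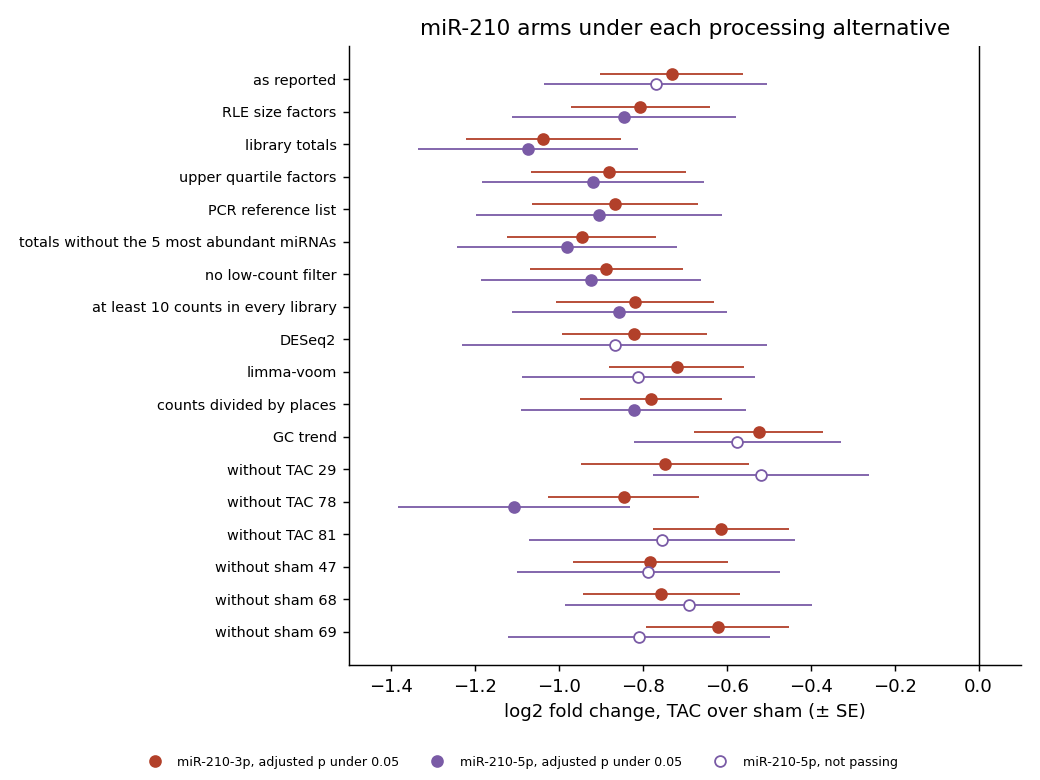
Log2 fold change of TAC over sham with its standard error for miR-210-3p (red) and miR-210-5p (purple) as reported and under 17 alternatives, with filled points for an adjusted p under 0.05. Every point is below 0: miR-210-3p runs from -1.04 to -0.52 and is filled throughout, and miR-210-5p runs from -1.11 to -0.52 and is filled in 9 of the 17.

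Both strands are rich in G and C, at 63.6% for miR-210-3p and 68.2% for miR-210-5p, and the changes in the table moved with base composition. The tested miRNAs with a RefSeq sequence were split at the quartiles of GC content into 4 bins, with tied values kept together and bin sizes of 69 to 94. The median log2 fold change of TAC over sham was 0.35 in the lowest bin (22.7% to 40.9% GC, 82 miRNAs), 0.01 in the next (94 miRNAs), -0.25 in the third (70 miRNAs) and -0.20 in the highest (60.0% to 100% GC, 69 miRNAs). Both strands of miR-210 are in the highest bin, where 11 miRNAs were called lower and 4 higher. With a GC trend taken out of each library, miR-210-3p was still called lower, at -0.52 ± 0.15 (edgeR adjusted p = 0.0318). miR-210-5p was at -0.57 ± 0.25 in that fit (adjusted p = 0.121).

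**Figure D4:**
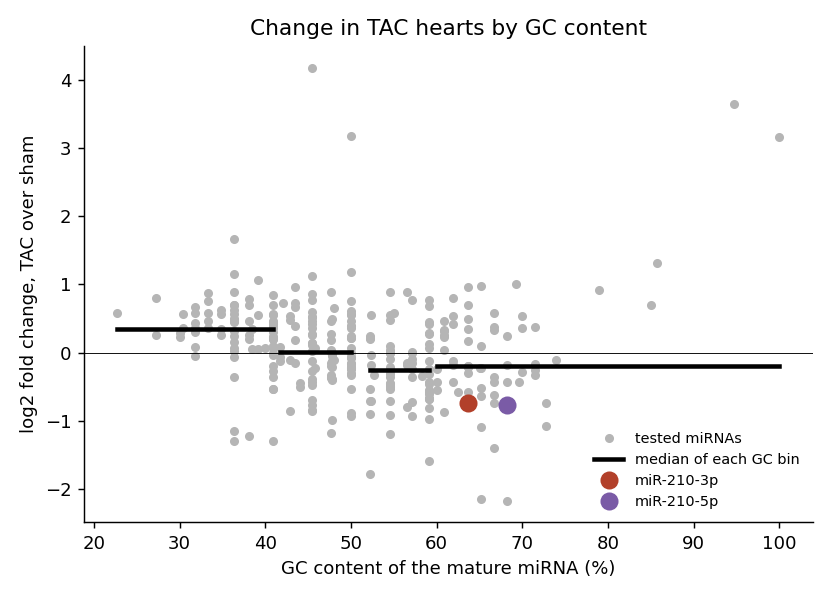
Log2 fold change of TAC over sham against the GC content of the mature miRNA for tested miRNAs with a RefSeq sequence, 1 point per miRNA, with black lines for the median of each GC bin. The medians go from 0.35 in the bin poorest in GC to -0.20 in the richest, and both miR-210 strands lie below the line of their bin.

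Other miRNAs of the low-oxygen response showed no common direction. The list held 20 miRNAs other than miR-210 that have been described as raised by hypoxia in cultured cells, of which 18 could be tested. Of these 4 rose in TAC hearts, 1 fell and 13 did not pass, where 19.2% of all tested miRNAs were called higher and 11.3% lower. The median of the list was -0.00 on the log2 scale, against 0.07 over all tested miRNAs. The single member that fell was miR-21a-5p, known from fibroblasts of stressed hearts, at 7598, 5470 and 5901 CPM in TAC 29, 78 and 81, against 13147, 16464 and 12562 CPM in sham 47, 68 and 69. Its log2 fold change was -1.15 ± 0.15, further than that of miR-210-3p.

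The members that rose were miR-192-5p, best known from kidney and gut epithelium, at 0.89 ± 0.11, miR-181c-5p at 0.86 ± 0.21, miR-30b-5p, of a family abundant in heart muscle, at 0.75 ± 0.10, and miR-26b-5p, encoded in an intron of Ctdsp1, at 0.58 ± 0.08 (edgeR adjusted p of 0.000901 to 0.0177). miR-26b-5p was at 0.23 with the GC trend taken out and was then not called (adjusted p = 0.0978), and miR-181c-5p was called in 12 of 17 alternatives. Of the most abundant members that did not pass, miR-26a-5p was at 0.21 ± 0.09, against -0.09 with library totals, miR-27a-3p at -0.19 ± 0.08 and miR-125b-5p at -0.24 ± 0.10. With an adjusted p under 0.05, miR-125b-5p was lower in 8 of 17 alternatives and miR-27a-3p in 7 of 17. miR-24-3p, classed with this response together with miR-23 and miR-27, was listed at 0 in every heart, and both of its places are overlapped by miR-3074-5p on the opposite strand, so its 0 is not read as absence. The name miR-424-5p, that of the human counterpart of miR-322-5p, matched no row.

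HIF1 is itself a target of miRNAs, and 11 that have been described as lowering HIF1A, its partner ARNT or the proteins that restrain HIF1A formed another list. Of 8 that could be tested, 1 rose, 1 fell and 6 did not pass, with a median of 0.13, where 19.2% of all tested miRNAs were called higher and 11.3% lower. miR-199a-5p, which has been described as repressing HIF1A in heart muscle cells and is also a mesenchymal miRNA, fell by 0.89 on the log2 scale. It was at 1678, 1382 and 1538 CPM in TAC 29, 78 and 81, against 3278, 3113 and 2152 CPM in sham 47, 68 and 69 (edgeR adjusted p = 0.00419). miR-20a-5p, of the miR-17 cluster, rose by 0.56 ± 0.18 (edgeR adjusted p = 0.0431), a call held in 3 of 17 alternatives. miR-17-5p, of the same cluster, was at 0.50 ± 0.17 (adjusted p = 0.0529), miR-322-5p at 0.23 ± 0.18 and miR-107-3p, near-identical to miR-103-3p, at -0.01 ± 0.14. The counts of miR-107-3p kept a nearly constant proportion to those of miR-103-3p in every heart. They were 1923 beside 4015 in TAC 29 and 3760 beside 7854 in sham 47. These rows, both also in the hypoxia list, are therefore not read as separate levels.

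**Figure D5:**
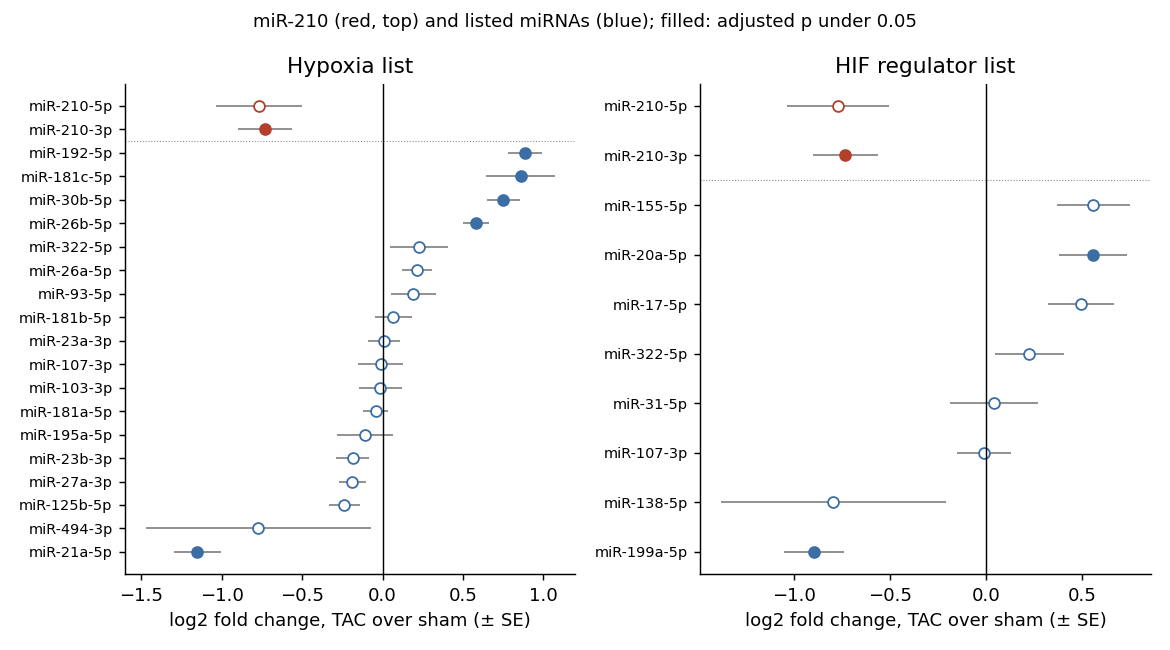
Log2 fold change of TAC over sham with its standard error for the tested members of the hypoxia list (left, 18 miRNAs) and of the HIF regulator list (right, 8 miRNAs) in blue, with both strands of miR-210 in red above them and filled points for an adjusted p under 0.05. Most listed miRNAs have higher log2 fold changes than miR-210-3p: 16 of 18 in the hypoxia list and 6 of 8 in the other, as do 90.4% of all tested miRNAs.

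The miRNAs whose profile over the 6 hearts was most like that of miR-210-3p were found among the 296 other tested miRNAs averaging 10 CPM or more, by the root mean square difference of centred log2 CPM. The nearest was miR-127-3p (0.10 log2 units), with 1313, 1807 and 1225 CPM in TAC 29, 78 and 81, against 2049, 2083 and 2745 CPM in sham 47, 68 and 69. As for miR-210-3p, TAC 78 was the highest TAC heart, TAC 81 the lowest and sham 69 the highest of all. Next came miR-434-5p, miR-434-3p, miR-99b-3p and miR-485-3p, at distances of 0.13 to 0.15. Apart from miR-99b-3p, on chromosome 17, these nearest miRNAs lie on chromosome 12 between positions 109592888 and 109734967, in the imprinted Dlk1-Dio3 region. The share of that region among the 296 compared miRNAs was not counted. The 5 nearest miRNAs were picked for likeness over these hearts, so similar changes and a similar order of hearts follow from the choice. Their log2 fold changes were -0.66 (miR-127-3p), -0.54 (miR-434-5p), -0.83 (miR-434-3p), -0.69 (miR-99b-3p) and -0.46 (miR-485-3p, the member of these that did not pass, with an edgeR adjusted p = 0.0593).

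For miR-210-5p the nearest profile was that of miR-532-3p (0.20 log2 units), at 13.5 ± 3.35 CPM in TAC and 22.5 ± 1.92 CPM in sham (SD, n = 3 each), followed by miR-673-5p, miR-125b-1-3p, miR-127-3p and miR-434-5p. The other strand of its own hairpin, miR-210-3p, was 15th, at 0.31 log2 units. Seen from miR-210-3p, miR-210-5p was 53rd. miR-210-5p had 15 to 92 counts per heart and miR-210-3p 127 to 836.

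Markers of the heart's cell types moved with the groups as well, in these whole-tissue libraries, where fewer cells of a type and less RNA per cell cannot be told apart. All 5 fibroblast rows of the list fell, where 11.3% of all tested miRNAs did, and 3 were called lower without TAC 29, TAC 78, TAC 81, sham 47 or sham 68. The rows hold 4 distinct sequences, since miR-199a-3p and miR-199b-3p are identical in RefSeq and their counts stood in a ratio of 2.0 (to 1 decimal) in every heart. Both of these rows were called in 12 of 17 alternatives, and miR-199a-5p, miR-214-3p and miR-214-5p in 17 of 17. The summed level of the list was 16568 to 17155 CPM in TAC and 19015 to 30748 CPM in sham, and without miR-199a-3p it was 6604 to 7006 CPM in TAC and 8121 to 12824 CPM in sham. Of 5 heart muscle miRNAs 4 rose, where 19.2% of all tested miRNAs did, and miR-208b-3p was at -0.05 ± 0.49. With library totals 2 rose (miR-133a-3p and miR-208a-3p were then not called), where 25 of 354 tested miRNAs did. The count was 3 with the PCR reference list, totals without the 5 most abundant miRNAs, no low-count filter or the GC trend. miR-208a-3p was called in 12 of 17 alternatives and miR-133a-3p in 16 of 17. The heart muscle miRNAs summed to 273505 to 325896 CPM in TAC and 151813 to 183072 CPM in sham. Of 4 smooth muscle miRNAs 3 rose, and of 5 tested leukocyte miRNAs 2 did, where 19.2% of all tested miRNAs rose. The smooth muscle miRNAs summed to 59555 to 62589 CPM in TAC and 34646 to 43270 CPM in sham. miR-143-3p and miR-145a-3p were called in 17 of 17 alternatives and miR-143-5p in 7 of 17. The leukocyte miRNAs that rose were miR-150-5p and miR-223-5p, a call that miR-223-5p kept in 2 of 17 alternatives. The 3 that did not pass were miR-155-5p at 0.56 ± 0.19, miR-142a-5p at 0.36 ± 0.17 and miR-223-3p, of the miR-223-5p hairpin, at -0.19 ± 0.24. The tested leukocyte miRNAs summed to 345 to 362 CPM in TAC and 218 to 234 CPM in sham. Of 3 tested red blood cell miRNAs, miR-451a rose, where 19.2% of all tested miRNAs did. The strands miR-144-3p at 0.28 ± 0.24 and miR-144-5p at 0.37 ± 0.23 did not pass. The sums of the list were 1642 to 3063 CPM in TAC and 1000 to 1165 CPM in sham. Most of this was miR-451a, with means of 2154 CPM in TAC and 971 CPM in sham. Of the 3 endothelial miRNAs only miR-126b-3p could be tested, with 6 to 22 counts per heart and a log2 fold change of 0.06 ± 0.33 (edgeR adjusted p = 0.905). miR-126a-3p and miR-126a-5p were at 0 in every heart and are overlapped on the opposite strand, as are miR-142a-3p and miR-486a-5p, also at 0. miR-126b-3p is itself overlapped, by miR-126a-5p, so its counts are not read as an endothelial level. The part of these shifts in the change of miR-210 was not tested.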

How the data were processed

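The authors deposited 1 table of raw read counts per mature miRNA with a column for each of the 6 hearts, and 0 columns were left unmatched. Per the submitters' processing notes, the build was mm10, and HISAT2, StringTie and DESeq2 were used at unstated steps. How adapters were trimmed, which counter ran and whether it used strand is not given in the sources used here. Of 1966 rows 1100 had a count. Animal numbers are not shared between the groups, and each library is a separate mouse per the labels.

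Counts of all rows were tested with edgeR 4.0.16 in R 4.3.3 (quasi-likelihood F-test, TMM, filterByExpr, adjusted p under 0.05). The standard error is the log2 fold change divided by the square root of F. Single values were compared with the exact permutation test of scipy 1.17.1. Alternatives were 5 other scalings, 2 other filters, DESeq2 1.42.0, limma-voom (limma 3.58.1), counts divided by the number of places, a GC trend (local regression, span 0.75; 315 of the 354 tested miRNAs had a sequence) and leaving out each heart. Log2 CPM used a prior count of 2, and the arm ratio had 0.5 added to each count. The hairpin was folded with RNAfold 2.7.2. The fit was tested on simulated data. A count of 0 allows up to 3 counts, or 0.767 to 2.82 CPM. Intervals and this limit cover counting error only.

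The members and the lists were chosen with earlier results of these data known. miRNAs are named by a fixed rule: up to 6 called and the 3 most abundant uncalled members of the hypoxia and HIF lists, called or 0 markers, the 5 nearest profiles, the 2 neighbours in level on each side and the 3 hairpins nearest in strand ratio. miR-16-5p, miR-25-3p, miR-191-5p, miR-423-3p, miR-103-3p, the miR-7063 strands and the leukocyte, red blood cell and heart muscle miRNAs that did not pass were named after their values were seen.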

Additional observations from a re-analysis of the deposited data

How the results depend on the processing

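miR-210-3p and the sum of both strands stayed called lower in all 17 alternatives, with log2 fold changes of -1.04 to -0.52 and -1.04 to -0.54. miR-210-5p kept its sign throughout and passed the threshold in 9 of 17: at -0.85 with RLE size factors, -1.07 with library totals, -0.92 with upper quartile factors, -0.90 with the PCR reference list, -0.98 with totals without the 5 most abundant miRNAs, -0.92 without a low-count filter, -0.86 with at least 10 counts in every library, -0.82 with counts divided by places and -1.11 without TAC 78. Its adjusted p ran from 0.00644 to 0.162.

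Leaving out each heart gave -0.85 to -0.61 for miR-210-3p, -1.11 to -0.52 for miR-210-5p, -0.87 to -0.63 for the sum and -0.22 to 0.22 for the strand ratio. In the same fits 64 to 83 miRNAs were called against 108 with all hearts (69 without TAC 78 and 64 without TAC 81), 3 to 4 of the hypoxia list rose and 1 fell, and 0 to 1 of the HIF regulator list rose and 1 fell.

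The count of hypoxia list members called lower, 1 as reported, was 3 with RLE size factors, upper quartile factors, no low-count filter or at least 10 counts, 5 with library totals or totals without the 5 most abundant miRNAs, 4 with DESeq2 and 2 with the PCR reference list. Lower calls over all tested miRNAs moved as well, from 40 of 354 as reported. They were 56 with RLE size factors, 63 with upper quartile factors and 56 with the PCR reference list. Library totals gave 102 of 354, and totals without the 5 most abundant miRNAs 82 of 354. DESeq2 gave 57 of 353, no low-count filter 65 of 1100 and at least 10 counts 54 of 287. The count of HIF regulator list members called higher, 1 as reported, was 2 with limma-voom and 0 with each of the 5 other scalings, both other filters, counts divided by places and the GC trend. Higher calls over all tested miRNAs were 68 as reported and 71 with limma-voom. In the named fits with 0 they ran from 25 (library totals) to 51 (counts divided by places). No paired analysis was possible because the groups share no animal number. Depth limits miR-210-5p most, with 15 to 30 counts in TAC hearts.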

Other observations

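In mean level over the 6 hearts, the tested miRNAs next to miR-210-3p were miR-222-3p and miR-6240 above it and miR-93-5p and miR-3535 below it. miR-222-3p, known from endothelial and smooth muscle cells, averaged 153 ± 60.6 CPM in TAC and 249 ± 35.8 CPM in sham (SD, n = 3 each), a difference of similar size to that of miR-210-3p that did not pass (log2 fold change -0.71 ± 0.26, edgeR adjusted p = 0.0632). miR-93-5p, of the cluster in Mcm7, was at 0.19 ± 0.14 and miR-3535 at 0.35 ± 0.15, and neither passed. miR-6240 varied most, at 260 ± 357 CPM in TAC and 130 ± 154 CPM in sham.

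The neighbours of miR-210-5p in level were miR-503-5p and miR-30d-3p above it and miR-668-3p and miR-132-5p below it. At this level miR-30d-3p rose by 0.94 ± 0.20 and miR-668-3p, of the Dlk1-Dio3 region, fell to 10.9 ± 1.63 CPM in TAC, against 28.6 ± 5.08 CPM in sham (SD, n = 3 each, edgeR adjusted p = 0.00402). miR-132-5p was at -0.47 ± 0.23 and miR-503-5p at -0.19 ± 0.25, and neither passed.

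The rows nearest to Mir210 on chromosome 7 were both strands of miR-7063, 399213 nt and more away, with 0 to 2 counts in every library.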
